A study of Mus musculus with 6 samples.

Results

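The primary granule genes Mpo, Elane, Prtn3, Ctsg and Prss57 were followed through the open chromatin of leukemia cells treated with mycophenolate mofetil (MMF). Ms4a3, a marker of myeloid progenitors, was grouped with them. MMF is an inhibitor of inosine monophosphate dehydrogenase and so of guanine nucleotide synthesis. Every peak of 6 peak lists that overlapped the body of 1 of the 6 genes or the 20 kb on either side was taken (mm10, GENCODE M21). Peaks that overlapped between lists were merged. This gave 45 of the 112852 regions of the series. The windows of Prtn3 and Elane overlapped, so the 6 genes fell into 5 windows, with 8 regions round Mpo, 14 round Prtn3 and Elane, 7 round Prss57, 6 round Ctsg and 10 round Ms4a3. Of the 45 regions, 25 had a peak in all 6 lists, against 41182 such shared regions in the whole series.

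The assay was ATAC-seq, in which the Tn5 transposase inserts sequencing adapters into open chromatin. It was run on 3 Control and 3 MMF samples of L-GMP cells, the leukemic granulocyte-macrophage progenitors that the study uses as leukemia stem cells (LSCs), sorted from mice with MLL-AF9-driven leukemia and cultured with mouse IL3. Both groups carry the MLL-AF9 fusion as the leukemia driver, while the sample labels give the genotype of all 6 samples as WT, the tissue as blood and the cell type as AML LSCs. The labels give a treatment of 24 h with no dose, the methods of the study give 500 nM for 24 h, and its figure legends give 250 nM for 16 h. The methods give C57BL/6 J mice aged 8 to 12 weeks, of both sexes, for the murine leukemia. What the Control cells received and the number of mice behind these samples are not given in the sources used here. Cells were sorted again before the assay. The methods speak of biologically independent experiments or samples in general, but no source says of these 6 samples that they are separate cultures or mice, so p-values measure only the spread between these samples, which may be technical.

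Primary, or azurophil, granules are the first granules to form in the neutrophil lineage and are filled at the promyelocyte stage. They hold myeloperoxidase (Mpo), which makes hypochlorous acid from hydrogen peroxide, and the serine proteases neutrophil elastase (Elane), proteinase 3 (Prtn3) and cathepsin G (Ctsg), which digest microbes and matrix proteins. Prss57, also called neutrophil serine protease 4, is a further granule protease. Ms4a3 encodes a membrane protein with several transmembrane segments that is made in granulocyte-monocyte progenitors and is used as a marker of them. Transcription of these genes in myeloid progenitors is known to depend on factors such as C/EBP proteins, PU.1, RUNX1 and MYB.

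The sequences below are the stretches under the summits on which the results turn, that is, the start-site peaks of Ms4a3, Ctsg, Elane and Prss57 and the peaks upstream of Mpo and downstream of Elane that were called higher with MMF. Each was read from the RefSeq copy of GRCm38 in the 100 bp on either side of the median summit, cut back to the longest part outside annotated exons and written 5′ to 3′ on the strand of the gene. Capitals mark matches, on either strand, to TTGCNNAA (C/EBP), GAGGAA (PU.1), TGNGGT (RUNX) or AACNGNC (MYB). Distances given here run from the summit to the nearest annotated start of the member. The Ms4a3 stretch is chr19:11640852-11641035 on the minus strand and ends at the gene's start. The Ctsg stretch is chr14:56102575-56102687, minus strand, and the Elane stretch is chr10:79886151-79886246, plus strand, and both also end at the gene's start. The Prss57 stretch is chr10:79790743-79790868 on the minus strand, inside the gene. The Mpo stretches, both on the plus strand, are chr11:87779577-87779708 in an intron of Tspoap1 and chr11:87790130-87790330 between genes. The last, downstream of Elane, is chr10:79889489-79889689, plus strand, between genes.
Ms4a3 start: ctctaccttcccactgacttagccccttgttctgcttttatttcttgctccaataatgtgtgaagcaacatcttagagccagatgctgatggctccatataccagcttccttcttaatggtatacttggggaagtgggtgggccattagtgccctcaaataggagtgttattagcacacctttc
Ctsg start: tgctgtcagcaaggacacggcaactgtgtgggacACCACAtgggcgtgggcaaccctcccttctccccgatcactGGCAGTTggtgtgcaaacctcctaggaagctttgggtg
Elane start: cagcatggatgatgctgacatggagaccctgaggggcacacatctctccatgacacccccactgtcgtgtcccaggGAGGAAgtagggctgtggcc
Prss57 start: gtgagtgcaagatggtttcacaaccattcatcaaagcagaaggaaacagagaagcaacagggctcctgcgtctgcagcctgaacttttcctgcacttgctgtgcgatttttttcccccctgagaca
Mpo 14.0 kb upstream: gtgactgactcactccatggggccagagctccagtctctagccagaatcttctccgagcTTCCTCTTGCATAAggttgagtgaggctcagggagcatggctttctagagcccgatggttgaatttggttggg
Mpo 3.35 kb upstream: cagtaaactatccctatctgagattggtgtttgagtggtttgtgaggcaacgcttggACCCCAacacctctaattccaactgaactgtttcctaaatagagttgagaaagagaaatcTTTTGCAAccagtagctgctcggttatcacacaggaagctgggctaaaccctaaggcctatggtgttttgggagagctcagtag
Elane 3.34 kb downstream: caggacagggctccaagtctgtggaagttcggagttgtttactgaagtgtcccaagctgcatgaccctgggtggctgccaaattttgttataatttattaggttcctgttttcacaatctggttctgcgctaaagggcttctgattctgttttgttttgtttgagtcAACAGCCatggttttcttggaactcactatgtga

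Both Mpo stretches hold 1 C/EBP match. In the stretch 14.0 kb upstream it directly follows a PU.1 match, with no overlap, and in the nearer one a RUNX match lies upstream of it. The Elane start stretch holds 1 PU.1 match, the Ctsg start stretch 1 RUNX and 1 MYB match, and the Elane downstream stretch 1 MYB match. The Ms4a3 and Prss57 start stretches hold none of the 4 letter patterns. With the parts that were cut off included, the Ms4a3 start still held none, but the Prss57 start held 1 RUNX and 2 MYB matches. The parts cut off added 2 MYB matches at the Elane start and 1 PU.1 match at the Ctsg start. The uncut site 14.0 kb upstream of Mpo held 2 PU.1 matches and 1 MYB match. Over the full 100 bp on either side of the summit, a C/EBP match was found in 8 of the 45 regions (17.8%, against 15.1% of all regions of the series), and a PU.1 match in 16 (35.6% against 31.3%). RUNX matches were found in 30 (66.7% against 46.0%) and MYB matches in 23 (51.1% against 25.8%). These matches are a description of the letters, and no test was made on them.

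Each deposited peak carries a fold enrichment and a −log10 p, and the reads under the summit, always a whole number, were solved from both together with the local background. Dividing them by the reads expected over 150 bp of genome, the genome-wide background of the sample, gave the depth-scaled summit reads used here. That background was 0.620 to 0.729 reads in Control and 0.676 to 0.909 reads in MMF samples. The median summit of a list held 14 to 19 reads, so a weak peak rests on few reads. The MMF lists held 80893 to 86556 peaks and the Control lists 58496 to 63911. Over the 41182 shared regions the median difference, MMF minus Control, was 0.17 on the log2 scale, and 64.5% had the higher mean with MMF, so differences given here are to be read against that shift. The shift varied with level, from a median of 0.38 among weak regions (the second of 8 equal bins by level) to a median of -0.12 among the strongest eighth.

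The label was checked against markers by peaks within 1000 bp of a transcription start. All 7 progenitor markers looked at (Cd34, Kit, Fcgr3, Spi1, Cebpa, Csf3r and Myb) had a promoter peak in at least 1 list, and 5 of them in all 6 lists. Of the T cell markers, 0 of 4 had one, and of the B cell markers 1 of 4 (Ebf1). Erythroid markers had a peak at 3 of 5, with Klf1 in all 6 lists and none at Gata1 or Slc4a1, and their summed promoter levels were 115 to 150 depth-scaled summit reads in Control and 120 to 136 in MMF samples. Eosinophil markers had a peak at 2 of 4, with none at Prg2 or Il5ra, and sums of 0 to 31.6 and 29.7 to 42.5. The mast cell or basophil markers had a peak at 1 of 4, Mcpt8, which neighbours Ctsg. Summed promoter levels of the markers of maturing neutrophils (5 of 6 with a peak, Mmp9 with none) were 68.0 to 93.3 depth-scaled summit reads in Control and 192 to 198 in MMF samples. All 6 are also in the list of secondary granule genes used here. For macrophage markers (3 of 4 with a peak, Marco with none) the sums were 163 to 182 and 211 to 221. These sums count a gene as 0 in a list without its peak, so part of the gap is uncalled Control peaks. Ltf had no peak in any Control list, and Ngp, Lcn2 and Csf1r each had none in 1 of them. Where called in Control, Ngp held 15.1 and 16.1, against 48.4, 58.1 and 51.7 in MMF samples. Csf1r held 12.3 and 13.0 against 36.3, 34.0 and 31.0, and Lcn2 16.5 and 10.1 against 24.2, 17.0 and 19.2. Of the neutrophil markers with a peak in all 6 lists, Camp held 11.6 to 27.4 in Control and 56.2 to 62.3 in MMF samples, and Mmp8 held 33.9 to 46.3 and 45.3 to 60.6. Of the macrophage markers with a peak in all 6 lists, Adgre1 held 14.5 to 23.3 in Control and 23.1 to 35.4 in MMF samples. Cd68 held 128 to 160 and 152 to 158, so the groups overlapped at both genes. The sums of the progenitor markers also overlapped, at 306 to 361 in Control and 345 to 416 in MMF samples. The part of cells of these types in the differences given here was not tested, and in bulk samples a larger share of cells with an open site cannot be told apart from a site that is more open in each cell.

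The windows held 33, 36 and 33 peaks in the Control lists and 40, 37 and 36 in the MMF lists, 34.0 ± 1.73 against 37.7 ± 2.08 (SD, n = 3 each; exact permutation test, two-sided, p = 0.2). The MMF mean was 1.11 times the Control mean, and for the whole lists this ratio was 1.37. With all lists cut to the length of the shortest, the difference in peaks in the windows, MMF minus Control, was -2.33 in place of 3.67. Their covered bases came to 12878 ± 566 in Control and 14342 ± 1141 in MMF lists, and every MMF list was above every Control list (p = 0.1, exact permutation test, two-sided, the smallest p that 3 samples against 3 allow). In bases too, MMF samples averaged 1.11 times the Control samples in the windows, where for the whole lists the ratio was 1.30. The difference of 1464 bases was 237 at equal list length (exact permutation test, p = 0.8) and 805 without MMF replicate 1. Only round Ms4a3 did every MMF list hold fewer peaks, 6 in each against 7, 9 and 7 in Control. One region, 11.1 kb downstream of the Ctsg start (chr14:56091329-56091607), had a peak in all 3 MMF lists and none in Control, with 18.7, 19.8 and 22.2 depth-scaled summit reads. Of all regions of the series, 6% had that pattern. One region 27.6 kb downstream of the Ms4a3 start (chr19:11613168-11613436) had peaks of 12.3, 11.6 and 11.3 in Control and none in MMF lists, a pattern of 0.182% of all regions. Both are low, near the level at which a peak is called, and a list without a peak may still have reads there. When Control replicate 2 was left out, the regions seen in every MMF list and no Control list numbered 3 in place of 1, because that library alone of the Control group had peaks at the starts of Elane and Prss57.

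**Figure D1:**
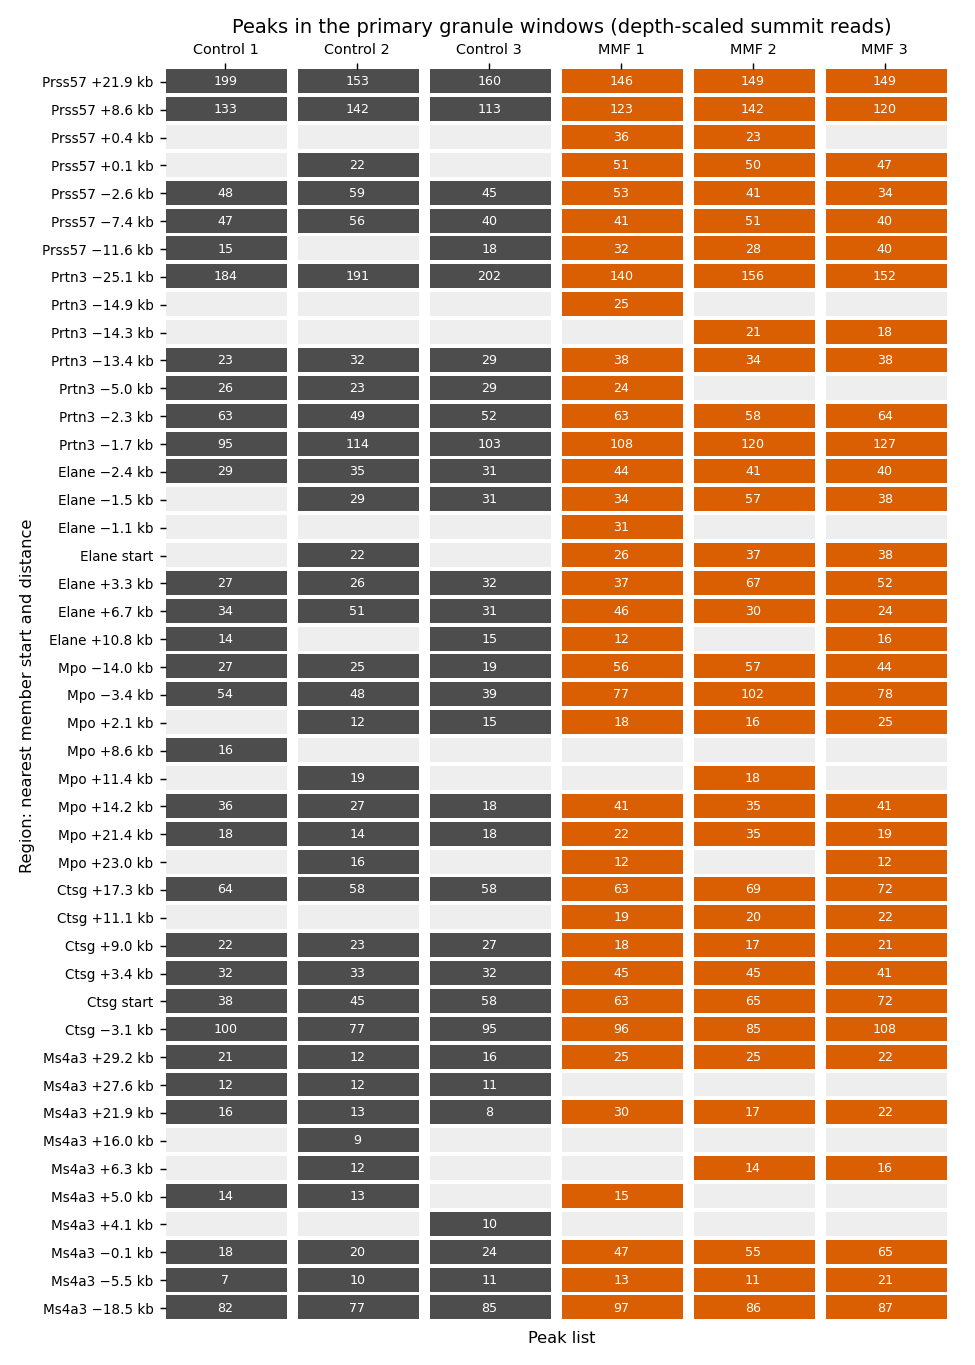
Peaks in the primary granule windows, 1 row for each of the 45 regions (nearest member start and distance in kb, positive downstream) and 1 column for each peak list. Filled cells, grey for Control and orange for MMF, hold a peak and print its depth-scaled summit reads, and pale cells hold none. Peaks at the starts of Elane and Prss57 appear in 1 Control list and in all 3 MMF lists. A pale cell is a list without a called peak, and its level is not known.

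Shared regions were tested with limma on the log2 depth-scaled summit reads, with Benjamini-Hochberg adjustment over all 41182. Of the 25 shared regions in the windows, 6 were higher and 1 was lower with MMF at an adjusted p of 0.05. Among all shared regions 21.8% were called higher and 3.09% lower. The 18 regions with no start of a protein-coding gene within 1000 bp held 4 of the 6, where 28.6% of all such distal regions were called higher. The other 2 were the only start-site peaks of members present in all 6 lists, those of Ms4a3 and Ctsg. Of all shared regions near a start, 4.14% were called higher, but that share is not matched for level. In the level bins of the Ms4a3 and Ctsg peaks, 29.8% and 25.3% of all shared regions, near a start or not, were called higher. The 1 lower call was the start of Ptbp1, in a class with 6.52% lower calls. The median difference of the 25 regions was 0.41 on the log2 scale, against 0.17 over all shared regions. Without testing, every MMF sample lay above every Control sample in 13 of the 25 (29.1% of all shared regions) and below in 3 (7.68%). The counts depend on the scaling. When the median ratio over all shared regions was set to 0, the calls over the whole series went from 8958 higher and 1271 lower to 5659 and 4830. Centring each sample on its median left 3 of the 25 higher and 7 lower (3609 and 10423 over the series), and quantile normalisation left 3 higher. The Ms4a3 start and both upstream Mpo peaks were called higher under all 3 of these scalings.

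**Figure D2:**
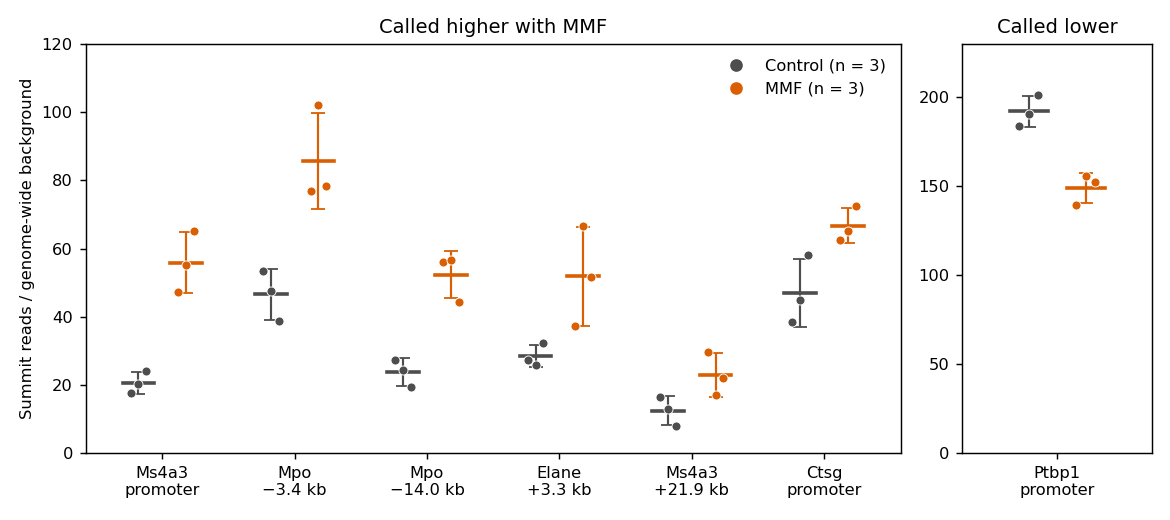
Depth-scaled summit reads (summit reads over the genome-wide background, linear axes from 0) of the 7 called regions, with 1 point per sample, the mean as a line and the SD as bars (n = 3 per group). The groups do not overlap in any of the 7, and the Ms4a3 start shows the widest gap between the groups as a ratio, from 24.2 in the highest Control to 47.3 in the lowest MMF sample.

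Ms4a3 showed the largest difference of the 25 regions. At its start (chr19:11640656-11641117) the summit held 17.8, 20.2 and 24.2 depth-scaled reads in Control and 47.3, 55.2 and 65.0 in MMF samples. The lowest MMF sample lay well above the highest Control sample. The means were 20.8 ± 3.21 and 55.9 ± 8.89 (SD, n = 3 each), 2.69-fold higher with MMF, and limma gave a log2 difference of 1.43 with an SE of 0.22 (adjusted p = 8.18e-07). That difference was above 98.5% of those of all shared regions. The rest of the window was weaker. An exon of Ms4a2, the gene of the beta chain of the high-affinity IgE receptor, lies 21.9 kb downstream of the Ms4a3 start and held 16.5, 13.0 and 8.06 in Control and 29.7, 17.0 and 22.2 in MMF samples (log2 difference 0.90, SE 0.30, limma adjusted p = 0.0179). The lowest MMF sample was close to the highest Control sample there, and the call was lost without Control replicate 3 or without MMF replicate 1 (limma adjusted p = 0.153 and 0.146).

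The other shared regions of the Ms4a3 window were not called. At 5.5 kb upstream the summit reads were 6.86, 10.1 and 11.3 in Control and 13.2, 11.3 and 20.7 in MMF samples (limma adjusted p = 0.11). The peak 29.2 kb downstream held 20.6, 11.6 and 16.1 against 25.3, 25.5 and 22.2 (limma adjusted p = 0.0858). The strongest peak of the window lies 18.5 kb upstream in an intron of Oosp2, within 1000 bp of its start, and held 82.3, 76.7 and 85.5 in Control and 96.8, 86.4 and 87.2 in MMF samples (log2 difference 0.15, limma adjusted p = 0.494). Inside the Ms4a3 gene lay 3 weak peaks of 9.67 to 16.3 depth-scaled summit reads, of which 2 were seen in lists of both groups and 1 in Control replicate 3 only. A peak of 8.68 between genes, 16.03 kb past the start, was seen in Control replicate 2 only.

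Mpo had no peak within 1000 bp of either of its annotated starts in any of the 6 lists. The differences in summit reads that were called in its window lay upstream. The peak 3.35 kb upstream (chr11:87789786-87790658) held 53.5, 47.7 and 38.7 depth-scaled summit reads in Control and 77.0, 102 and 78.3 in MMF samples. The means of 46.6 ± 7.46 and 85.8 ± 14.1 (SD, n = 3 each) differed 1.84-fold (log2 difference 0.88, SE 0.17, limma adjusted p = 3.41e-05). The peak 14.0 kb upstream, in an intron of the neighbouring gene Tspoap1 (chr11:87779234-87779795), held 27.4, 24.6 and 19.3 in Control and 56.1, 56.7 and 44.3 in MMF samples. The groups did not overlap at either site. For the farther one the means were 23.8 ± 4.10 and 52.4 ± 6.95, a 2.20-fold difference (log2 difference 1.14, SE 0.22, limma adjusted p = 4.24e-05).

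Downstream of Mpo, 2 peaks lay in introns of Lpo, the gene of lactoperoxidase, and had higher means with MMF but were not called. The peak 14.2 kb past the nearest annotated Mpo start held 35.7, 27.5 and 17.7 in Control and 40.7, 35.4 and 41.4 in MMF samples, and the groups overlapped (limma adjusted p = 0.0549). The peak 21.4 kb past it held 17.8, 14.5 and 17.7 against 22.0, 35.4 and 19.2 (limma adjusted p = 0.126). A weak peak over an exon of Mpo, 2.06 kb past the nearest start, was called in 2 Control lists (11.6 and 14.5) and in all 3 MMF lists (17.6, 15.6 and 25.1). The remaining 3 regions of the window had a peak in 1 to 3 lists.

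**Figure D3:**
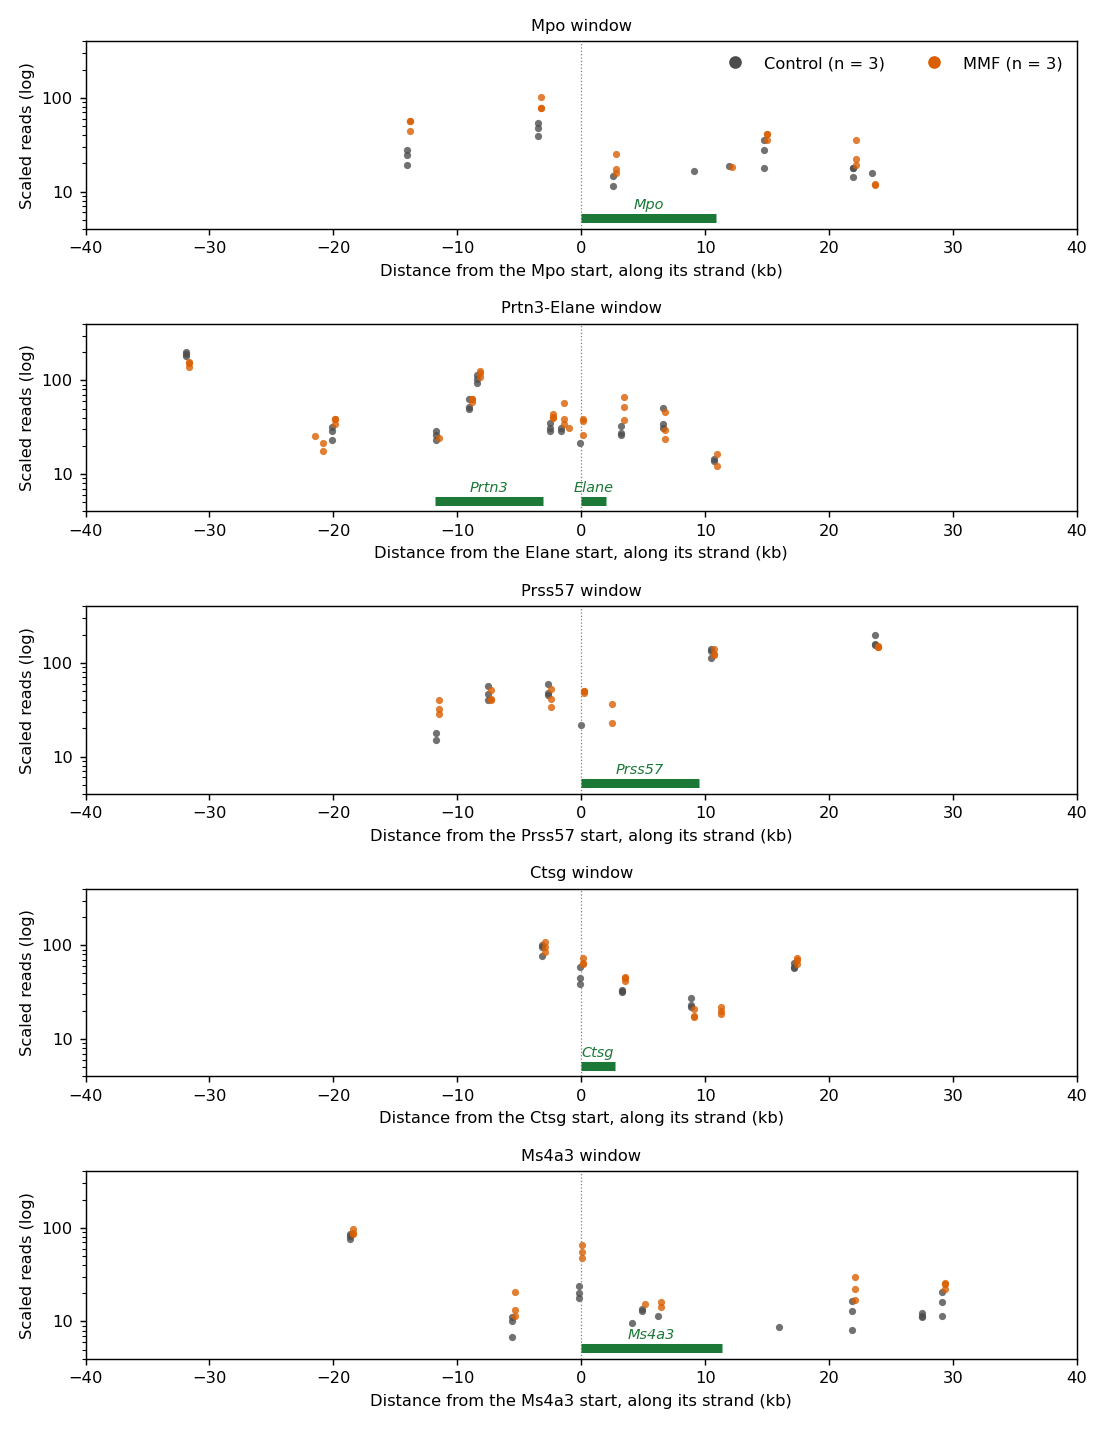
Depth-scaled summit reads (log axis) of every peak in the 5 windows, against the distance of the summit from the first annotated start of a member along its strand (kb), with 1 point per sample, grey for Control and orange for MMF and set slightly apart. Green bars mark the members' gene bodies. The orange points stand clear above the grey ones at the Ms4a3 start and upstream of Mpo, and below them at the left end of the window of Prtn3 and Elane, at the start of Ptbp1.

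Elane and Prtn3 lie next to each other, with Prtn3 upstream. Elane was called at its start (chr10:79886127-79886375) in 1 Control list, with 21.7 depth-scaled summit reads in Control replicate 2, and in all 3 MMF lists, with 26.4, 36.8 and 38.4. The fold enrichment was low, 3.24 in Control replicate 2 and 3.46, 4.15 and 4.38 in the MMF lists. These ranked at percentiles 1.37, 1.64, 11.5 and 13.7 of their lists, near the level at which a peak is called. The level in the other Control lists is not known. The peak 3.34 kb past the Elane start, beyond the end of the gene (chr10:79889322-79889763), held 27.4, 26.0 and 32.2 in Control and 37.4, 66.6 and 51.7 in MMF samples. It was called higher, with means of 28.6 ± 3.26 and 51.9 ± 14.6 (SD, n = 3 each) and a log2 difference of 0.83 (SE 0.22, limma adjusted p = 0.00234). The MMF samples were spread widely there, and the call was lost without MMF replicate 2, the highest (log2 difference 0.63, limma adjusted p = 0.0688). It was also lost when each sample was centred on its median (limma adjusted p = 0.0771), after quantile normalisation (0.0745) and on both rank scores by fold enrichment (0.141 and 0.392). Between the genes, 2.41 kb upstream of the Elane start, the summit held 28.8, 34.7 and 30.6 in Control and 44.0, 41.1 and 39.9 in MMF samples. These did not overlap, but the difference of 0.41 on the log2 scale was not called (limma adjusted p = 0.158). At 6.67 kb past the start the order was mixed, with 34.3, 50.6 and 30.6 against 46.2, 29.7 and 23.7 (limma adjusted p = 0.496). At 1.55 kb upstream of the start a peak was called in 2 Control lists (28.9 and 30.6) and in all 3 MMF lists (34.1, 56.7 and 38.4). A peak 1.12 kb upstream was seen in MMF replicate 1 only, and a weak peak in an intron of Med16, 10.8 kb past the start, in 2 lists of each group.

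Prtn3 had no peak within 1000 bp of its annotated coding start in any list. Its strongest peak, 1.68 kb upstream of that start and inside the longer gene record, was among the strong peaks of the windows in both groups. It held 94.7, 114 and 103 depth-scaled summit reads in Control and 108, 120 and 127 in MMF samples, 104 ± 9.82 against 118 ± 9.82 (SD, n = 3 each), and was not called (log2 difference 0.19, SE 0.13, limma adjusted p = 0.298). The adjoining peak, 2.28 kb upstream, held 63.1, 49.2 and 51.6 against 62.7, 58.1 and 63.6 (limma adjusted p = 0.489), and here too the groups overlapped.

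The far end of the same window went the other way. The start of Ptbp1, the gene of a splicing repressor, lies 25.1 kb upstream of Prtn3 (chr10:79853803-79855308) and held 184, 191 and 202 in Control and 140, 156 and 152 in MMF samples. It was the strongest of the 25 regions and the 1 called lower, with a log2 difference of -0.36 (SE 0.11, limma adjusted p = 0.00667). The call was lost without a variance trend (limma adjusted p = 0.135), after quantile normalisation (0.156) and on the 3 rank scores (0.381 to 0.921). Plppr3, a phospholipid phosphatase-related gene, starts 4.98 kb upstream of the Prtn3 start. Its start had a peak in all 3 Control lists (26.1, 23.1 and 29.0) and in MMF replicate 1 alone of the MMF lists (24.2). The same region covers the 5′ end of the longer Prtn3 gene record. The peak was weak, with a fold enrichment of 2.98, 2.43 and 3.21 in Control and 2.74 in MMF replicate 1. A peak over an exon of Ptbp1, 14.9 kb upstream of Prtn3, was called in MMF replicate 1 only (25.3), and a peak over an exon of Plppr3, 14.3 kb upstream, in MMF replicates 2 and 3 only (21.2 and 17.7).

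Prss57, in the same part of chromosome 10, was called at its start (chr10:79790536-79790983) in Control replicate 2 alone of the Control lists, with 21.7 depth-scaled summit reads, and in all 3 MMF lists, with 50.6, 49.6 and 47.3. The 3 MMF values lay close together and were each more than double the 1 Control value, and no fold was taken because the level in the other 2 Control lists is not known. A second peak within 1000 bp of an annotated start of Prss57 (chr10:79788437-79788837) was seen in MMF replicates 1 and 2 only. The 4 shared regions of the window were not called. At the start of Palm, which lies 2.58 kb upstream of the Prss57 start, the summit held 48.0, 59.3 and 45.1 in Control and 52.8, 41.1 and 34.0 in MMF samples (limma adjusted p = 0.338). At the start of Rnf126, at the other end of the window, it held 199, 153 and 160 against 146, 149 and 149 (limma adjusted p = 0.203). An intron of Fstl3, just past the end of Prss57, held 133, 142 and 113 against 123, 142 and 120 (limma adjusted p = 0.968). An intron of Palm, 7.42 kb upstream of Prss57, held 46.7, 56.4 and 40.3 against 40.7, 51.0 and 39.9 (limma adjusted p = 0.707). A weaker site in Palm, 11.6 kb upstream, had a peak in Control replicates 1 and 3 (15.1 and 17.7) and in all 3 MMF lists (31.9, 28.3 and 39.9). Of the 5 windows, this was the 1 in which no shared region had a higher mean with MMF.

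Ctsg had a start-site peak in all 6 lists (chr14:56102364-56102737). It held 38.4, 44.8 and 58.0 depth-scaled summit reads in Control and 62.7, 65.2 and 72.4 in MMF samples, so the groups did not overlap but came close. The means of 47.1 ± 10.0 and 66.8 ± 5.06 (SD, n = 3 each) differed 1.42-fold, and limma gave a log2 difference of 0.52 (SE 0.18, adjusted p = 0.0214). That call was lost without Control replicate 1, Control replicate 2 or MMF replicate 3 (limma adjusted p = 0.141, 0.0555 and 0.0983). It was also lost when the shift over all shared regions was taken out (log2 difference 0.34, limma adjusted p = 0.135). The strongest peak of the window, 3.05 kb upstream, held 100, 76.7 and 95.1 in Control and 95.7, 85.0 and 108 in MMF samples (limma adjusted p = 0.696). The peak 3.44 kb past the start held 31.6, 33.3 and 32.2 against 45.1, 45.3 and 41.4, and although the groups were well apart the limma test, which pools the spread of similar regions, did not call it (log2 difference 0.44, SE 0.21, adjusted p = 0.117). The peak 9.01 kb past the start held 22.0, 23.1 and 27.4 against 17.6, 17.0 and 20.7, lower in every MMF sample and not called (limma adjusted p = 0.307). At the start of Mcpt8, a protease gene listed above among the mast cell or basophil markers, the summit held 64.5, 57.9 and 58.0 against 62.7, 69.4 and 72.4 (limma adjusted p = 0.452).

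Compared as single values, the start-site peaks of Ms4a3 and Ctsg each had all MMF samples above all Control samples (p = 0.1 for each by a two-sided exact permutation test, the smallest possible with 3 against 3). Among the 11687 protein-coding genes with a promoter peak in all 6 lists, 6.19% had that pattern and 17.8% the opposite one, at all levels together. The median log2 ratio of these genes was -0.10.

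**Figure D4:**
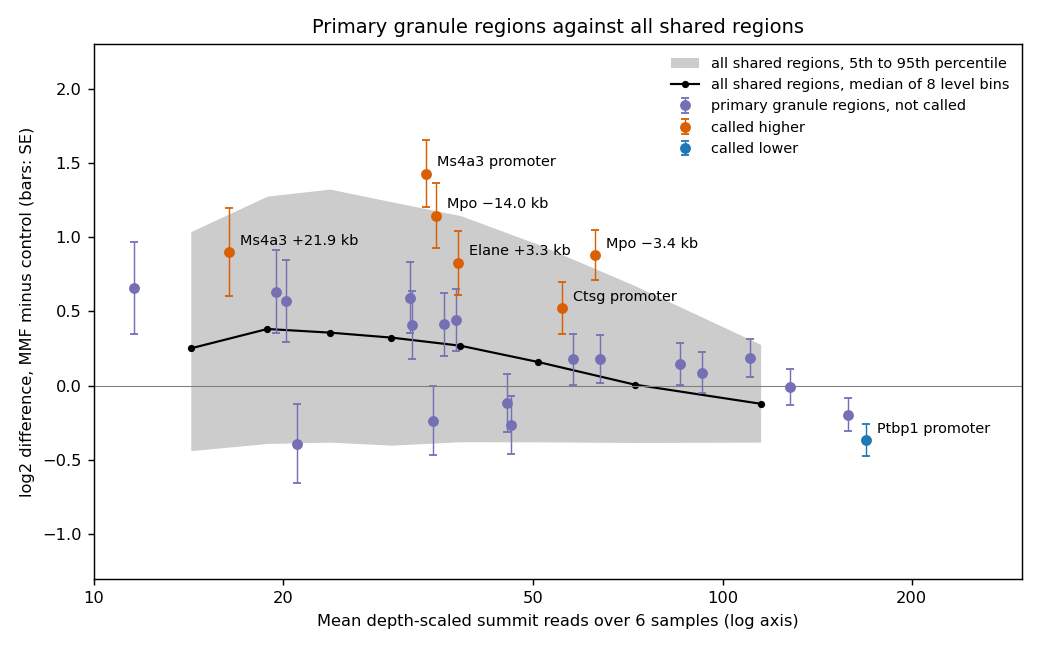
Log2 difference (MMF minus Control, bars are the SE of the limma fit) of the 25 shared regions in the windows against their mean depth-scaled summit reads over 6 samples (log axis), over the median (black, 8 equal bins by level) and the 5th to 95th percentile (grey) of all 41182 shared regions. Orange points were called higher, the blue point was called lower, and the Ms4a3 start and the peak 3.35 kb upstream of Mpo stand above the grey band.

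The local background in the lists gives a second measure, the number of reads in the 10 kb round a summit, here divided by the number expected from the genome-wide background. It was above the genome-wide floor in all 6 lists for 23 of the 25 shared regions. The windows of neighbouring summits overlap and hold the summits themselves, so these values share reads with each other and with the summit counts. All MMF samples were above all Control samples at 12 of the 23 (32.6% of the 30641 shared regions of the series with this measure) and below at 4 (15.9%). By limma 9 of the 23 were called higher and 4 lower, where 28.9% and 12.2% of all were.

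At the Ms4a3 start the 10 kb held 1.52, 1.63 and 1.89 times the genome-wide expectation in Control and 2.72, 3.12 and 3.02 times in MMF samples (log2 difference 0.82, limma adjusted p = 2.23e-10). At 3.35 kb upstream of Mpo the values were 3.07, 3.41 and 3.31 against 4.17, 4.59 and 4.37 (log2 difference 0.42, limma adjusted p = 2.98e-05). At 14.0 kb upstream of Mpo they were 2.47, 2.45 and 2.32 against 2.61, 2.87 and 2.51, and this was not called (log2 difference 0.14, limma adjusted p = 0.333). So the farther Mpo peak, 2.20-fold higher at its summit, differed 1.10-fold in the surrounding 10 kb.

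Along the window of Prtn3 and Elane the 10 kb measure changed direction. At the Ptbp1 start it was 17.5, 17.3 and 17.1 in Control and 13.0, 13.1 and 13.7 in MMF samples (log2 difference -0.38, limma adjusted p = 2.97e-12). At 13.4 kb upstream of Prtn3, in an intron of Plppr3, it was 5.37, 4.92 and 5.66 against 4.49, 4.76 and 4.52 (log2 difference -0.21, limma adjusted p = 0.0245). The summit reads at that site were not lower but 23.3, 31.8 and 29.0 against 38.5, 34.0 and 38.4, a difference that was not called (limma adjusted p = 0.194). Upstream of Prtn3 by 1.68 kb the 10 kb values overlapped, with 9.55, 10.6 and 9.48 against 10.4, 10.6 and 10.3. At 2.41 kb upstream of Elane they were 6.17, 6.12 and 5.27 against 7.44, 7.69 and 7.47 (log2 difference 0.37, limma adjusted p = 1.89e-06). Past the Elane gene, at 3.34 kb, they were 4.20, 4.95 and 4.52 against 5.38, 6.06 and 5.63 (log2 difference 0.32, limma adjusted p = 2.88e-04), and at 6.67 kb the groups overlapped. Of the other calls on this measure, 3 in the Ctsg window and the Lpo intron 14.2 kb past the Mpo start were higher, the Fstl3 intron and the Rnf126 start near Prss57 were lower, and the Palm start near Prss57 was higher (log2 difference 0.22, limma adjusted p = 0.01).

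**Figure D5:**
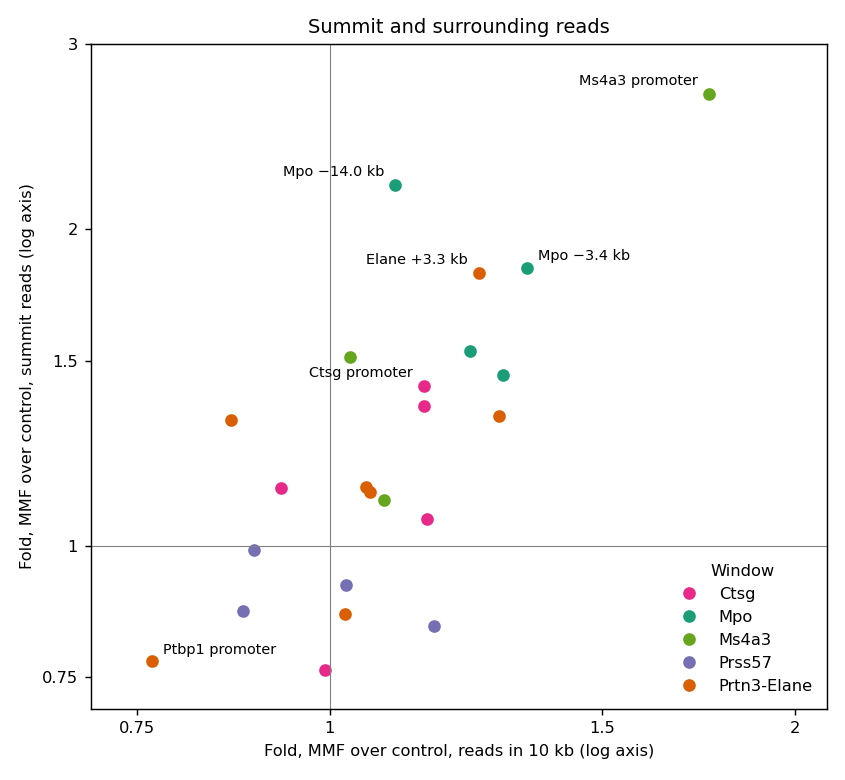
Fold (MMF mean over Control mean) of summit reads against the fold of reads in the 10 kb round the summit (both log axes) for the 23 shared regions with both measures, coloured by window, with the called regions named. The Ms4a3 start lies at 2.69 and 1.76, the Mpo peak 14.0 kb upstream at 2.20 and 1.10, and the Ptbp1 start is below 1 on both axes.

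Further granule genes were looked at by the same fit. Of 20 further genes of azurophil granules and promyelocytes, 18 had a shared region within 1000 bp of a start, 20 regions in all, of which 3 were higher, Cst7 and Lyz2 among them, and 1 was lower (Ctsa). Among all shared regions near a start, 4.14% were called higher and 6.52% lower, at all levels together. Lyz2, the gene of lysozyme, went from 23.3, 20.2 and 25.8 depth-scaled summit reads in Control to 40.7, 43.9 and 38.4 in MMF samples (log2 difference 0.83, SE 0.23, limma adjusted p = 0.00463). Cst7, the gene of the inhibitor cystatin F, held 17.8, 26.0 and 16.1 in Control and 24.2, 35.4 and 39.9 in MMF samples. The groups overlapped there and the summits rest on 10 to 27 reads (log2 difference 0.73, limma adjusted p = 0.0289). Ctsa, a lysosomal carboxypeptidase, was lower at 1 of its 2 regions (log2 difference -0.57, limma adjusted p = 0.00759). The median log2 ratio of the 18 promoters was 0.00, against -0.10 over all genes. Of 10 genes listed here for the secondary granules, which form later in the lineage, 4 had a shared promoter region. Of these, 2 were higher, where 4.14% of all shared regions near a start were, a share not matched for level. Camp, the gene of the cathelicidin, held 24.7, 11.6 and 27.4 in Control and 61.6, 62.3 and 56.2 in MMF samples (log2 difference 1.59, limma adjusted p = 1.79e-07). Itgam, the alpha chain of an integrin of myeloid cells, rose by 0.92 (limma adjusted p = 9.90e-05). Ltf, the gene of lactoferrin, had a promoter peak in 0 of 3 Control and 3 of 3 MMF lists, at 9.90, 12.7 and 10.3. That peak rests on 9, 9 and 7 reads, near the level at which a peak is called. Of all regions of the series, 6% were likewise in every MMF list and no Control list.

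Among 11685 other protein-coding genes with a promoter peak in all 6 lists, the 5 whose pattern over the 6 samples was nearest to the mean profile of Ms4a3 and Ctsg were Fmn1, Ptprk, Mesp2, Gda and Pik3cg. Their root mean square difference from that profile, in log2 units centred on the mean of each gene, was 0.08 to 0.11.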

How the data were processed

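ATAC-seq peak lists of 3 Control and 3 MMF samples were used. The authors used Bowtie2 (mm10) for mapping and MACS2 for peak calling, sample by sample (the submitters' processing notes also name FastQC and Trim Galore). Versions and options are not given in the sources used here. The deposited values per peak are a fold enrichment, which is a ratio of (summit reads + 1) to (background + 1), and −log10 p and −log10 q values. The deposited score column was not used, and the reads were not analysed here.

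Chromosomes 1 to 19, X and Y were kept. Summit reads and background were solved from fold enrichment and Poisson p, and came out as whole reads for 100% of peaks (relative tolerance 2e-05). Every local background above the genome-wide floor was a whole number of reads in 10 kb. Peaks overlapping by at least 1 bp were merged. A promoter lay within 1000 bp of a start in the GENCODE M21 basic annotation. Shared regions were tested with limma 3.58.1 (lmFit, eBayes with trend, R 4.3.3) at an adjusted p of 0.05, and single values with two-sided exact permutation tests in Python 3.11.15. Sequences were read with pysam 0.24.0 from RefSeq's GRCm38. Steps were tested on simulated data.

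The members, lists and tests were chosen with earlier results of these data known. Named were the 6 members and the regions in their windows, genes starting in those regions, listed granule genes called by limma (1 of them is not reported here), cell type markers, and the 5 genes with the nearest promoter pattern. Oosp2 (start within 1000 bp of a region), Tspoap1, Lpo, Ms4a2 and Fstl3 (places of regions), Ltf and Mmp9 were named after their values were seen. Depth-scaled values describe called peaks only, so a list without a peak has no value. Alternatives covered scaling, ranks, list length, thresholds, overlap, window and promoter widths, the replicate block and each sample left out.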

Additional observations from a re-analysis of the deposited data

How the results depend on the processing

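With lists cut to the length of the shortest, the difference in the number of peaks in the windows, MMF minus Control, was -2.33 in place of 3.67. Requiring peaks to cover at least 50% of a region gave 4 gained and 2 lost. Leaving out 1 replicate gave 1 to 3 gained and 1 to 2 lost (3 gained without Control replicate 2; 2 gained without MMF replicate 1 or 3; 2 lost without MMF replicate 1), 5 to 7 regions higher and 1 lower. Regions called higher by limma, 6 as reported, numbered 3 when each sample was centred on its median, 3 after quantile normalisation, 2 on whole-list ranks and 1 on ranks among shared regions. Regions called lower, 1 as reported, numbered 7 when centred, 2 after median-of-ratios scaling, 4 on reads in 10 kb, and 0 without a variance trend, on whole-list ranks by fold enrichment or by p, and on ranks among shared regions. At an unadjusted limma p under 0.05 those 4 fits had 2, 1, 0 and 2 lower regions. Start-site peaks of members with every MMF sample above every Control sample numbered 1 in place of 2 on percentile ranks by fold enrichment and when divided by the sample median. The cause was not tested.

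Over all 41182 shared regions the calls were 8958 higher and 1271 lower as reported, 3609 and 10423 when centred, 5659 and 4830 after median-of-ratios scaling, and 3946 and 2576 after quantile normalisation. Of the 17 alternatives, the call was lost in 1 for the Ms4a3 start (ranks among shared regions), in 1 for the Mpo peak 14.0 kb upstream (reads in 10 kb), in 2 for the Mpo peak 3.35 kb upstream (both rank scores by fold enrichment), in 5 each for the Elane peak past the gene and the Ptbp1 start, and in 10 for the Ctsg start. It was lost in 9 of 16 for the Ms4a2 exon. No called region changed direction. Same-numbered Control and MMF samples did not deviate together (Pearson r of -0.00128, 0.00388 and -0.00257 over shared regions), so the numbers were not taken as pairs. With the replicate number as a block, 6 member regions were higher and 1 lower, and 8889 and 1289 of all. The median-of-ratios, quantile and 10 kb alternatives were added after the data had been seen.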
